A study of Mus musculus with 4 samples.

Results

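The 10 CXC chemokine ligands described here are Cxcl1, Cxcl2, Cxcl3, Cxcl9, Cxcl10, Cxcl12, Cxcl13, Cxcl14, Cxcl16 and Pf4. They were chosen by gene name from gene tables that list 23337 names. All 10 were found, each on a single row. RNA had been sequenced from sorted liver macrophages (Kupffer cells) of male and female reporter mice aged 6 to 8 weeks, named Lyz2cre-RosaYFP in the labels. The reporter gives off yellow fluorescence (YFP) in a cell once Cre, driven by the promoter of lysozyme 2 (Lyz2), has acted in it or in a cell it came from. Lyz2 is active in macrophages, monocytes and neutrophils alike. Both sorted groups carry the Cre and the reporter, and the labels name no treatment. The groups were 2 YFP+ and 2 YFP- libraries, in each group 1 titled M and 1 titled FM, letters whose meaning is not stated. Nothing states that each library is a separate mouse, so p-values measure only spread between these libraries, pooled over genes, which may be technical. In the main limma fit the variance of each gene came wholly from a trend over all tested genes. A gene's own spread between libraries thus did not enter its SE or p-value.

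CXC chemokines are small secreted proteins that bind G protein-coupled receptors and heparan sulfate and guide leukocytes along gradients. Cxcl1, Cxcl2 and Cxcl3 act through CXCR2 and draw neutrophils, while Cxcl9 and Cxcl10 are induced by interferons and draw T and NK cells through CXCR3. Cxcl12 is made mainly by stromal and endothelial cells and holds CXCR4+ cells in place, Cxcl13 attracts B cells through CXCR5, Cxcl16 is a membrane-bound ligand of CXCR6, and Pf4 is the platelet factor stored in alpha granules. In the liver, resident macrophages and endothelium are known sources of several of these proteins after tissue injury.

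The libraries differed in more than these ligands. At least 1 TPM (a level per transcript length, scaled to sum to 1000000 in a library) was reached by 10302 and 7386 genes in the YFP+ M and FM libraries and by 12434 and 12829 genes in the YFP- M and FM libraries. Mean read coverage at 1 FPKM, the measure of depth that the tables allow, lay between 2.59 and 9.19. Lyz2 itself stood at 143 and 50.5 TPM in the YFP+ libraries and at 26.4 and 58.1 TPM in the YFP- libraries, and it did not pass the test (log2 fold change 1.10, limma adjusted p = 0.344) but passed under median-ratio scaling (3.31, 0.00241). Summed over 8 Kupffer cell markers such as Cd5l and Clec4f, the level was 41813 and 39633 TPM in YFP+ and 6874 and 12485 TPM in YFP- libraries. Summed over 9 microglia markers such as Fcrls, it was 1006 and 74.7 TPM in YFP+ and 17388 and 16077 TPM in YFP- libraries. The YFP- libraries thus hold, beside Kupffer cell transcripts, those of the brain's macrophages, which goes against their liver label. The YFP+ M library holds them too, at a lower level that is still far above that of YFP+ FM. The part of this in the results was not tested. Of all 12251 tested genes, 0.522% passed as higher and 39.5% as lower in YFP+ libraries, with a median log2 fold change of -1.73. The median log2 difference, YFP+ minus YFP-, was -1.01 between the M libraries and -2.48 between the FM libraries. Member changes are therefore given with and without other scalings of the libraries, and in bulk RNA fewer cells of a type and less RNA per cell cannot be told apart.

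Of the 10 ligands, 7 lie on chromosome 5. Pf4, Cxcl3, Cxcl1 and Cxcl2 sit within 133504 bases of each other, and the gap between Cxcl1 and Cxcl2 spans 10755 bases (GENCODE M21, GRCm38). The coding sequences of Cxcl2 and Cxcl3 were 89.7% identical, those of Cxcl1 and Cxcl2 75.7% and those of Cxcl1 and Cxcl3 72.7%. In spite of this, 0% of the 50-base stretches of Cxcl1 transcripts and 5.84% of those of Cxcl2 also occurred in transcripts of another gene, for Cxcl2 all of them in Cxcl3. For Cxcl3 the share was 4.29%, with Cxcl2 among the other genes, so reads of Cxcl2 and Cxcl3 could have been split between them. Cxcl2 was 48.5 to 214 times as abundant as Cxcl3 in the 4 libraries. A small part of the Cxcl2 reads could therefore make up a large part of the Cxcl3 level, which was not tested. Cxcl16 shared 16.9% of its stretches with Zmynd15 and Cxcl10 shared 3.59% with Art3, genes that overlap them on the other strand. No source used here states whether reads were counted by strand. Zmynd15 was listed at 1.67 to 9.52 TPM and Art3 at 0 to 3.03 TPM in the 4 libraries.

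The 250 bases before the start are shown for 5 ligands, in RefSeq's GRCm38.p6 sequence: the CXCR2 ligands Cxcl1, Cxcl2 and Cxcl3, the interferon-induced ligand Cxcl10, and Cxcl12, which contrasts with them in level and in base composition. Capitals mark matches, on either strand, to the NF-kB consensus, an interferon-stimulated response element core (GAAA, any 2 bases, GAAA), a TATA-like box (ATAAAA) and a GC box (CCGCCC).
Cxcl1: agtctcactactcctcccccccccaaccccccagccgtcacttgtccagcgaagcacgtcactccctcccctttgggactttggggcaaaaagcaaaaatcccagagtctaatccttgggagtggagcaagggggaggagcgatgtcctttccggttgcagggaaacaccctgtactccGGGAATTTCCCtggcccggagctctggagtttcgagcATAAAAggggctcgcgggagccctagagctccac
Cxcl2: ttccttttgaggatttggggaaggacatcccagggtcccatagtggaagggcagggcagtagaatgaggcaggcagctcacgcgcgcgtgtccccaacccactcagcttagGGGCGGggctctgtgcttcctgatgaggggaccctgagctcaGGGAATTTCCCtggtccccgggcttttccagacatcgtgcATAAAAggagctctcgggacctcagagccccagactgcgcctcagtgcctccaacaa
Cxcl3: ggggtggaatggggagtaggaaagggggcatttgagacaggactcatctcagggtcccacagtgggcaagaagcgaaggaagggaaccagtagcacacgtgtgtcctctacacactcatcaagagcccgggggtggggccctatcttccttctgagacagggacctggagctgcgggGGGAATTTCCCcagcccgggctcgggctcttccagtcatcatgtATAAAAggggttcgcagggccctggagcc
Cxcl10: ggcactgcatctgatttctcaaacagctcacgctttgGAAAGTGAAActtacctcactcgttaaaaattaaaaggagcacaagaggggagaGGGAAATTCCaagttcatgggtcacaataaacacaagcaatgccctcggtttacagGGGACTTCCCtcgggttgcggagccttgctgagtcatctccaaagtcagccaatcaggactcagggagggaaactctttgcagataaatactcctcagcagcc
Cxcl12: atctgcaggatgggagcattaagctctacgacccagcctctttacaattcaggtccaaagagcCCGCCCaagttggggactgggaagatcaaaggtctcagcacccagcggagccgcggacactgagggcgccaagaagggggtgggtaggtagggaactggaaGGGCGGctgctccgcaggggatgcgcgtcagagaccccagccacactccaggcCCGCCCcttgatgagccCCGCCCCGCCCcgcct
The windows are chr5:90890995-90891244 (plus strand), chr5:90903649-90903898 (plus), chr5:90785851-90786100 (plus), chr5:92348890-92349139 (minus) and chr6:117168285-117168534 (plus), in the same order.

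Cxcl1, Cxcl2 and Cxcl3 shared the 10-base run GGGAATTTCC, at -71 to -62, -97 to -88 and -73 to -64 from their starts, and a TATA-like box downstream of it at -34, -57 and -29. The overlapping match on the other strand extends the capitals by 1 base. The run was searched for because the 3 windows share it. It occurred in 28 of 32851 promoter windows of this length, or 0.0852%, while 3.9% held the NF-kB consensus and 17% the TATA-like box. The same windows of the 3 genes were only 49.7% to 54.7% identical in pairwise alignment. Cxcl10 held 2 matches to the NF-kB consensus, at -159 to -150 and -103 to -94, and a response element core at -213 to -204, which 2.98% of windows hold. Cxcl12 held 5 GC boxes (32.7% of windows hold at least 1) and was 64.4% GC, against a median of 52.4% over all windows. In Cxcl14 a response element core lay at -172 to -163, in Pf4 a TATA-like box on the other strand at -77, and the letters searched were not in the windows of Cxcl9 and Cxcl13. These are matches of letters, not measured binding, and the table had windows for 9 of the 10 ligands, with Cxcl16 the missing one.

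**Figure D1:**
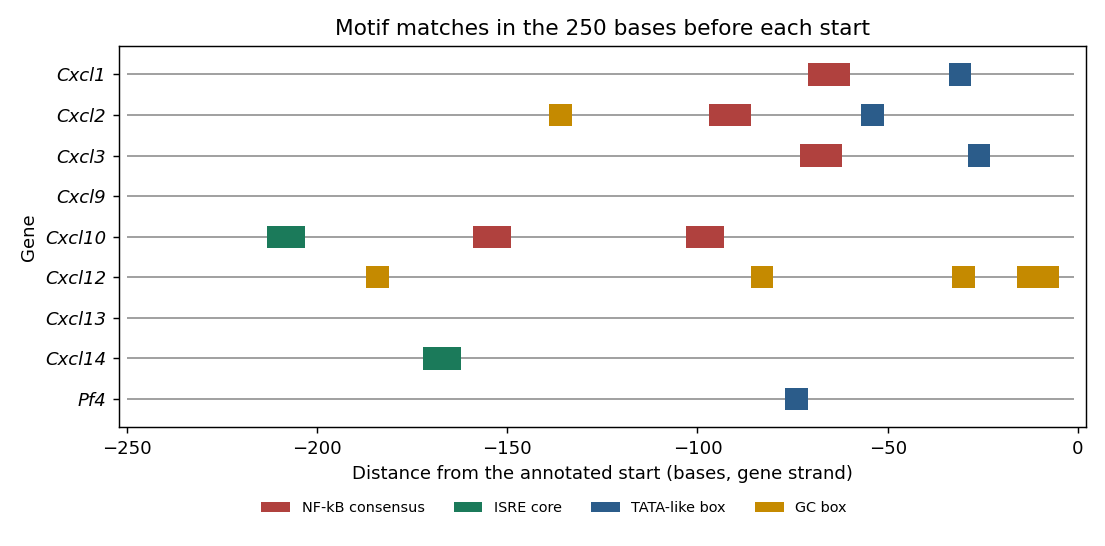
Matches to 4 motifs in the 250 bases before the annotated start of 9 CXC ligands, drawn by distance from the start in bases on the gene's strand. Cxcl1, Cxcl2 and Cxcl3 each show an NF-kB consensus match followed by a TATA-like box, and Cxcl12 shows only GC boxes.

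The CXCR2 ligands Cxcl2 and Cxcl1 were the 2 ligands that rose in YFP+ libraries, where 0.522% of all tested genes rose. Cxcl2 (chromosome 5, 90903899 to 90905938, GRCm38) stood at 1589 TPM in the YFP+ M and 2611 TPM in the YFP+ FM library, against 163 and 356 TPM in the YFP- M and FM libraries. Both YFP+ libraries lay far above both YFP- libraries. The means were 2100.1 ± 723 and 259.7 ± 136 TPM (SD, n = 2), and on the log2(TPM + 1) scale the difference was 3.07 (SE 0.76, limma adjusted p = 0.000984). Cxcl2 had the 130th and 101st highest level of all genes in the YFP+ M and FM libraries, and the 785th and 435th in the YFP- libraries. A rank does not change when all values of a library are multiplied by 1 factor.

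Cxcl1 (chromosome 5, 90891245 to 90893115) was at 562 and 384 TPM in the YFP+ M and FM libraries and at 54.2 and 75.7 TPM in the YFP- M and FM libraries. Here too the groups were well apart, with means of 473 ± 126 and 64.9 ± 15.3 TPM (SD, n = 2). The log2 fold change was 2.84 (SE 0.90, limma adjusted p = 0.00898). The log2 difference was 3.35 in the M pair of libraries and 2.33 in the FM pair. Within each library Cxcl2 exceeded Cxcl1, with a ratio of 2.83 and 6.79 in the YFP+ and 3.02 and 4.70 in the YFP- M and FM libraries. This ratio therefore overlapped between the groups: the M libraries were the 2 lowest and the FM libraries the 2 highest.

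Cxcl3 (chromosome 5, 90786103 to 90788090), the other ligand of the cluster that acts through CXCR2, was far less abundant. It was at 7.42 and 15.6 TPM in the YFP+ M and FM libraries and at 1.29 and 7.34 TPM in the YFP- M and FM libraries. The groups did not overlap, yet the YFP+ M and YFP- FM libraries were nearly equal, and the difference did not pass (log2 fold change 1.44, SE 1.09, limma adjusted p = 0.255). Per transcript length, Cxcl2 was 214 and 168 times as abundant as Cxcl3 in the YFP+ libraries and 127 and 48.5 times in the YFP- libraries. The Cxcl3 values could thus hold reads of Cxcl2 from the stretches that the genes share, and their part was not tested.

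Neutrophil markers were read beside these ligands, since neutrophils also make Cxcl2. Of 7 tested neutrophil markers 0 rose and 1 fell by limma (0 higher and 2 lower at an unadjusted p under 0.05), and their summed level was 1423 and 6801 TPM in YFP+ and 1907 and 3640 TPM in YFP- libraries. The summed level overlapped between the groups, and its part in the result was not tested. The Kupffer cell markers moved with both ligands, and 6 of 8 rose. For both marker lists, the shares over all tested genes were 0.522% risen and 39.5% fallen. Relative to the summed Kupffer cell markers of the same library, Cxcl2 was at 38.0 and 65.9 TPM per 1000 in YFP+ and at 23.8 and 28.5 per 1000 in YFP- libraries, a ratio of 1.60 in the M pair and 2.31 in the FM pair. Cxcl1 was at 13.4 and 9.70 against 7.88 and 6.06 per 1000, a ratio of 1.71 and 1.60. Both thus remained higher in YFP+ libraries on this measure, by less than in TPM. The measure depends on the markers summed. By log2 fold change Marco (3.79) rose by more than either ligand, and Fcna (2.96) by more than Cxcl1. The other markers of the list changed by less than both ligands.

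**Figure D2:**
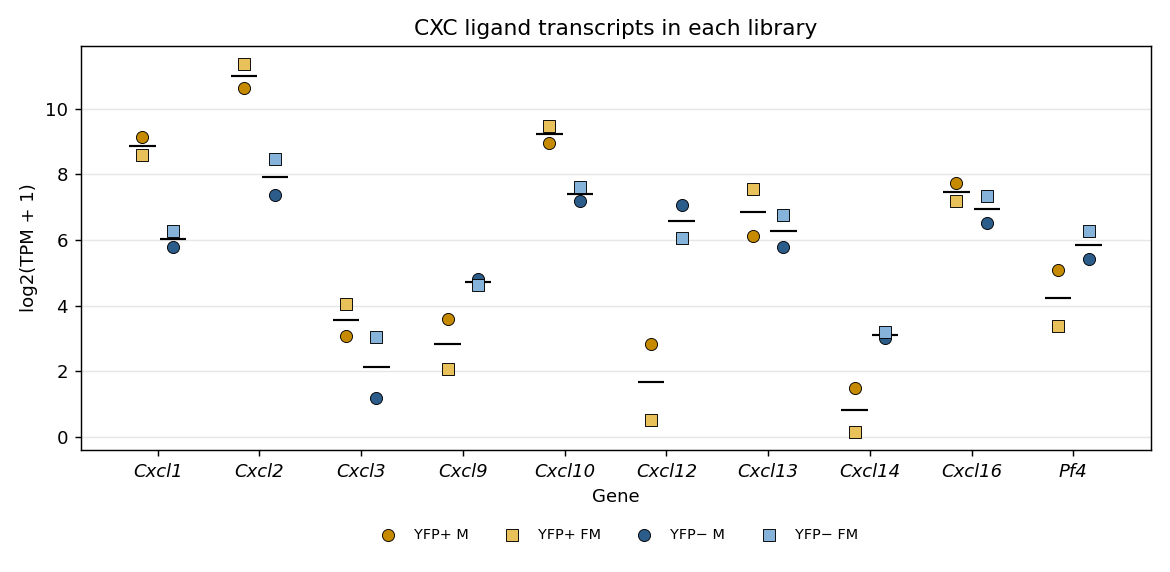
Level of each CXC ligand as log2(TPM + 1) in the 4 libraries, with circles for M and squares for FM libraries and a bar at the mean of each group (n = 2). The 2 YFP+ points lie above both YFP- points for Cxcl1, Cxcl2, Cxcl3 and Cxcl10, below them for Cxcl9, Cxcl12, Cxcl14 and Pf4, and among them for Cxcl13 and Cxcl16.

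The interferon-induced ligand Cxcl10 (chromosome 5, 92346639 to 92348889) came next after Cxcl2 by mean level in both groups. It stood at 493 and 717 TPM in the YFP+ M and FM libraries and at 146 and 194 TPM in the YFP- M and FM libraries. All YFP+ values were above all YFP- values, on the deposited TPM by similar amounts in the M (log2 difference 1.75) and FM libraries (1.88). Relative to the median of all tested genes the amounts differed, as that median was -1.01 in the M and -2.48 in the FM libraries. The fold change of 1.81 (SE 0.84) did not pass (limma adjusted p = 0.0668). Cxcl10 passed under median-ratio scaling (4.08, adjusted p = 0.00620) and with FPKM in place of TPM (2.35, adjusted p = 0.0173). Relative to Kupffer cell markers the groups overlapped, at 11.8 and 18.1 per 1000 in YFP+ and 21.2 and 15.6 per 1000 in YFP- libraries.

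Cxcl9 (chromosome 5, 92321331 to 92328079), which shares the receptor CXCR3 with Cxcl10, was listed at 11.0 and 3.24 TPM in the YFP+ M and FM libraries and at 27.0 and 23.9 TPM in the YFP- M and FM libraries. It lay lower in both YFP+ libraries, with a log2 fold change of -1.89 (SE 1.14, limma adjusted p = 0.156) that was -0.15 relative to the median of all genes and turned sign under quantile normalization, median-ratio scaling and cyclic loess. It passed without a mean trend (limma adjusted p = 0.0440), where 0.465% of all genes were called higher and 46.0% lower, and without the YFP+ M library (-2.64, 0.0173), where 68.2% were called lower. On the deposited TPM, the ratio of Cxcl10 to Cxcl9 within a library was 44.7 and 221 in YFP+ and 5.39 and 8.15 in YFP- libraries. The 2 ligands of CXCR3 thus stood in different proportion in the 2 groups, with no overlap. This follows from Cxcl10 lying higher and Cxcl9 lower in both YFP+ libraries, and it is no separate result. Of all tested genes 79.7% lay lower in both YFP+ libraries.

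Among ligands known for stromal or homeostatic roles, Cxcl12 had the widest gap of the 10 members. Its level (chromosome 6, 117168535 to 117181368) was 6.13 and 0.422 TPM in the YFP+ M and FM libraries and 133 and 65.8 TPM in the YFP- M and FM libraries. The lower YFP+ value rests on a mean coverage of 0.630 reads per base, so that value is imprecise. The means were 3.27 ± 4.03 and 99.5 ± 47.6 TPM (SD, n = 2), and Cxcl12 fell with a log2 fold change of -4.89 (SE 1.12, limma adjusted p = 0.000419). It was the 968th and 2640th most abundant gene in the YFP- M and FM libraries and the 6166th and 9196th in the YFP+ libraries.

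Markers of other cell types were lower as well, in a comparison where 39.5% of all tested genes fell and 79.7% lay lower in both YFP+ libraries. The 8 endothelial markers summed to 328 and 156 TPM in YFP+ and to 1065 and 931 TPM in YFP- libraries, and 5 of 8 fell. Those that did not pass were Cdh5 (log2 fold change -0.05), Stab2 (-0.03) and Clec4g (-0.81). For the 9 stellate, pericyte and fibroblast markers the sums were 7.89 and 2.39 against 85.8 and 125 TPM, with 5 of 6 tested members lower. Of those, Col1a2, Col3a1, Rgs5 and Pdgfrb reached 1 TPM only in YFP- libraries. They passed the filter only through the group where they were high, so their fall is no separate result. The 5 astrocyte markers summed to 17.2 and 5.08 against 86.1 and 112 TPM, and 4 fell. The same limit holds for Gfap and Aqp4 among them. All 9 microglia markers fell. None of these markers was listed at 0 in every library, and their part in the Cxcl12 result was not tested.

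Cxcl14 (chromosome 13, 56288643 to 56296551), a CXC ligand of epithelium and stroma, was low throughout. It was at 1.84 and 0.116 TPM in the YFP+ M and FM libraries and at 7.07 and 8.10 TPM in the YFP- M and FM libraries. Both YFP+ values were below both YFP- values and Cxcl14 fell (-2.27, SE 0.78, limma adjusted p = 0.0166), or -0.54 relative to the median of all genes. The call ended under quantile normalization (-0.51, adjusted p = 0.448), median-ratio scaling (-1.02, 0.149) and cyclic loess (-0.36, 0.573). Coverage of 0.244 reads per base in the YFP+ FM library limits its value there.

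Cxcl13 (chromosome 5, 95956939 to 95961068), the B cell attractant, was at 69.4 and 188 TPM in the YFP+ M and FM libraries and at 53.9 and 108 TPM in the YFP- M and FM libraries. The groups overlapped, and both FM libraries were above both M libraries. Its log2 fold change of 0.57 (SE 0.96) did not pass (limma adjusted p = 0.605). Without the YFP+ FM library the sign turned (-0.14, limma adjusted p = 0.930), and median-ratio scaling gave a call (2.82, adjusted p = 0.0238).

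Cxcl16 (chromosome 11, 70454234 to 70459984), both a chemokine and a scavenger receptor for phosphatidylserine and oxidized lipoprotein, stood at 211 and 144 TPM in the YFP+ M and FM libraries and at 90.04 and 163 TPM in the YFP- M and FM libraries. YFP+ lay above YFP- for the M libraries (log2 difference 1.22) and just below for the FM libraries (-0.18), and the overall difference of 0.52 (SE 0.91) did not pass (limma adjusted p = 0.623). It passed under median-ratio scaling (2.78, adjusted p = 0.0150). Relative to Kupffer cell markers Cxcl16 was lower in YFP+ libraries, at 5.04 and 3.63 per 1000 against 13.1 and 13.03 per 1000.

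Pf4 (chromosome 5, 90772435 to 90773383) was at 32.8 and 9.35 TPM in the YFP+ M and FM libraries and at 41.8 and 75.9 TPM in the YFP- M and FM libraries. The YFP+ values were lower without overlap, but the YFP+ M and YFP- M libraries were close, and the difference did not pass (-1.62, SE 1.06, limma adjusted p = 0.190). It turned sign under quantile normalization, median-ratio scaling and cyclic loess, and without the YFP+ M library, where 68.2% of all genes were called lower, it passed (-2.47, limma adjusted p = 0.0287). Platelet and megakaryocyte markers were lower in YFP+ libraries, where their sum was 2.28 and 0.931 TPM against 23.5 and 35.7 TPM in YFP- libraries. All 4 tested markers of that list fell, as did 39.5% of all tested genes, and 79.7% of all lay lower in both YFP+ libraries. Of these markers, Itga2b, Tubb1 and Treml1 reached 1 TPM only in YFP- libraries. They passed the filter only through the group where they were high, so their fall is no separate result. Gp1ba, Gp5 and Gp6 did not pass the filter. The list's part in the Pf4 values was not tested. Ppbp, the other abundant platelet chemokine, was at 0.315 TPM in the YFP+ M library and listed at 0 in the YFP+ FM library, against 4.92 and 2.58 TPM in YFP- libraries. In the 3 libraries that list both, Pf4 exceeded Ppbp 104 times in YFP+ M, 8.499 times in YFP- M and 29.4 times in YFP- FM.

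**Figure D3:**
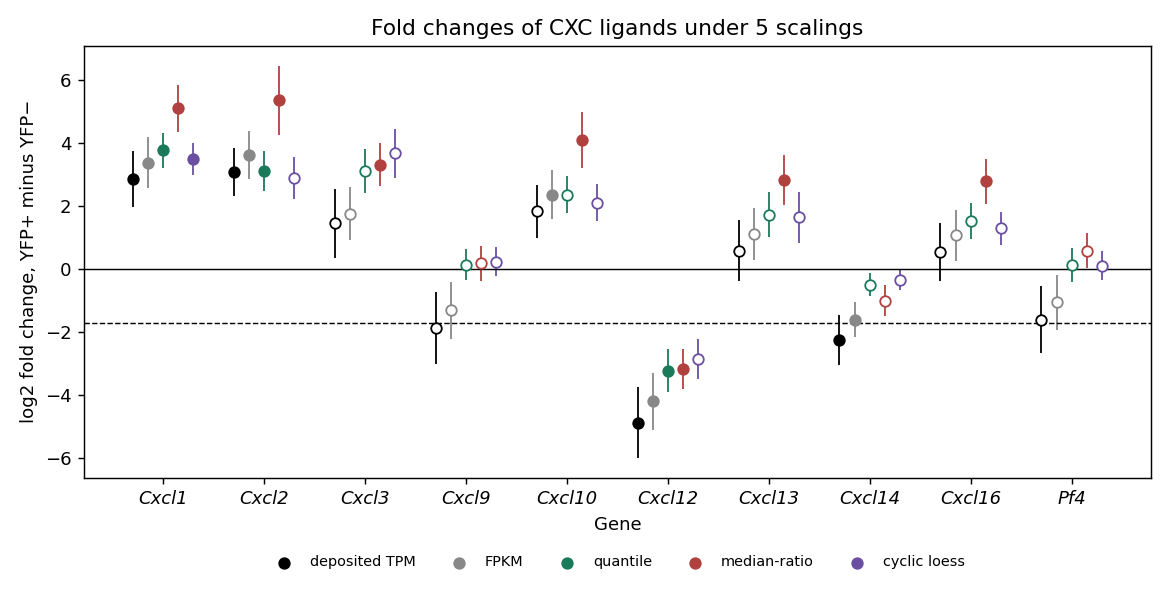
Log2 fold change, YFP+ minus YFP-, of each CXC ligand on the deposited TPM, on FPKM and under 3 other scalings, with bars of 1 SE. Filled points passed at an adjusted p of 0.05, open points did not, and the dashed line marks the median of all tested genes on the deposited TPM (-1.73).

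Counted together, 2 of the 10 ligands rose (0.522% of all tested genes did) and 2 fell (39.5% did). Both YFP+ libraries exceeded both YFP- libraries for 4 ligands, against 2.5% of all tested genes, and lay below both for 4 ligands, against 79.7% of all genes. The median log2 fold change was 0.55 over the 10 ligands and -1.73 over all tested genes. All 10 passed the filter of at least 1 TPM in at least 2 libraries.

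The calls differed in how far they held. Under quantile normalization, where 1.21% of genes were called higher and 1.67% lower, Cxcl1 (3.76, adjusted p = 0.0311), Cxcl2 (3.10, 0.0430) and Cxcl12 (-3.24, 0.0451) were called and Cxcl14 was not. Under cyclic loess (0.531% higher, 0.327% lower) Cxcl1 was called (3.48, adjusted p = 0.0463), while Cxcl2 (2.88, 0.0833) and Cxcl12 (-2.87, 0.0708) were not. Median-ratio scaling (6.2% higher, 6.45% lower) called 6 ligands higher, adding Cxcl3 (3.30, adjusted p = 0.00469), Cxcl10, Cxcl13 and Cxcl16, and Cxcl12 lower. FPKM (1.02% higher, 30.8% lower) called Cxcl10 in addition. Without a filter on low values (0.00429% higher, 0.72% lower) 0 of the 10 passed by limma, while 3 were higher and 1 lower at an unadjusted p under 0.05. Leaving out single libraries also ended calls by limma. The share of all genes called was then 0.346% higher and 68.2% lower without YFP+ M, 0.0983% and 7.95% without YFP+ FM, 0.69% and 0.253% without YFP- M, and 0.399% and 0.234% without YFP- FM. Cxcl1 was lost without YFP- M (adjusted p = 0.244) or YFP- FM (0.125), and Cxcl2 without YFP+ FM (0.0929). Cxcl12 was lost without YFP- M (0.388) or YFP- FM (0.554), and Cxcl14 without YFP+ FM (0.174), YFP- M (0.388) or YFP- FM (0.680). The directions of Cxcl1, Cxcl2, Cxcl12 and Cxcl14 stayed the same in each of these fits. Exact permutation of 2 against 2 libraries cannot give a two-sided p below 0.333, so the adjusted p-values rest on the variance that limma pooled over genes.

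The make-up of CXC ligand transcripts on the deposited TPM does not change when a library is multiplied by 1 factor, though quantile normalization and cyclic loess alter it. The 10 ligands summed to 2983 and 4072 TPM in the YFP+ M and FM libraries and to 717 and 1078 TPM in the YFP- M and FM libraries. Of this sum Cxcl2 took 53.3% and 64.1% in YFP+ and 22.8% and 33.0% in YFP- libraries. The 3 CXCR2 ligands together took 72.3% and 73.9% in YFP+ against 30.5% and 40.7% in YFP- libraries. Cxcl10 held a similar share in the 4 libraries, between 16.5% and 20.3%. Cxcl12 made up 0.205% and 0.0104% of the sum in YFP+ but 18.6% and 6.11% in YFP- libraries, and Pf4 1.10% and 0.230% against 5.83% and 7.04%. Cxcl16 took 7.07% and 3.53% in YFP+ and 12.6% and 15.1% in YFP- libraries. Shares of a sum depend on each other, so a larger share of Cxcl2 lowers those of the other ligands. In TPM, Cxcl16 was higher in the YFP+ M (211) than in the YFP- M library (90.04).

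**Figure D4:**
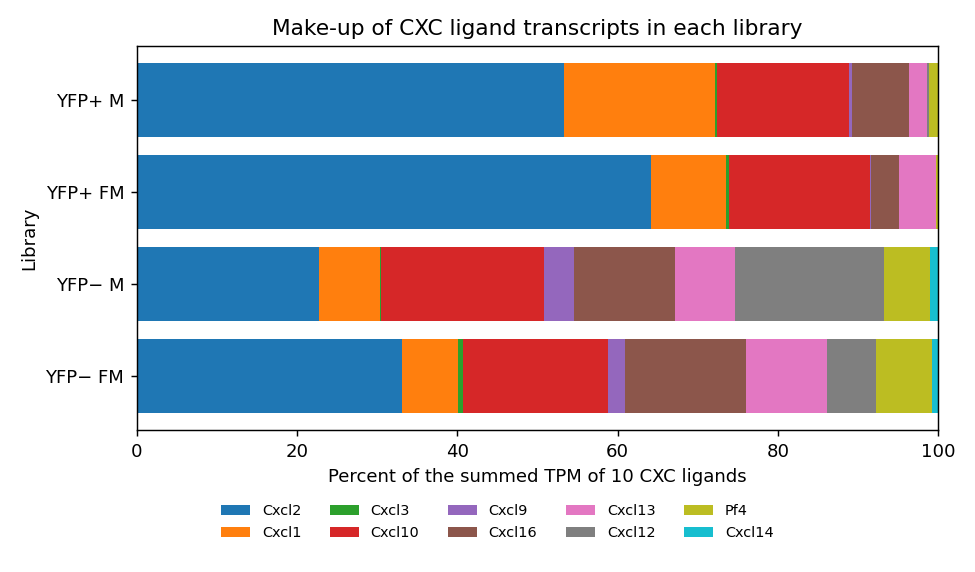
Share of each CXC ligand, in percent of the summed TPM of the 10 ligands, in each library. Cxcl2 takes 53.3% and 64.1% in the YFP+ and 22.8% and 33.0% in the YFP- libraries, where Cxcl12, Cxcl16 and Pf4 fill larger parts.

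Ordered by mean level, YFP+ libraries read Cxcl2, Cxcl10, Cxcl1, Cxcl16, Cxcl13, Pf4, Cxcl3, Cxcl9, Cxcl12 and Cxcl14. The ranges of Cxcl10 and Cxcl1 overlapped, as did those of Cxcl16 and Cxcl13 and of each pair of neighbours from Pf4 down. Cxcl2 stood clear of Cxcl10, Cxcl1 of Cxcl16 and Cxcl13 of Pf4. In YFP- libraries the order was Cxcl2, Cxcl10, Cxcl16, Cxcl12, Cxcl13, Cxcl1, Pf4, Cxcl9, Cxcl14 and Cxcl3. There the ranges of all neighbours overlapped except Pf4 with Cxcl9 and Cxcl9 with Cxcl14. Cxcl1 thus had place 3 in YFP+ and place 6 in YFP- libraries, and Cxcl12 places 9 and 4.

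**Figure D5:**
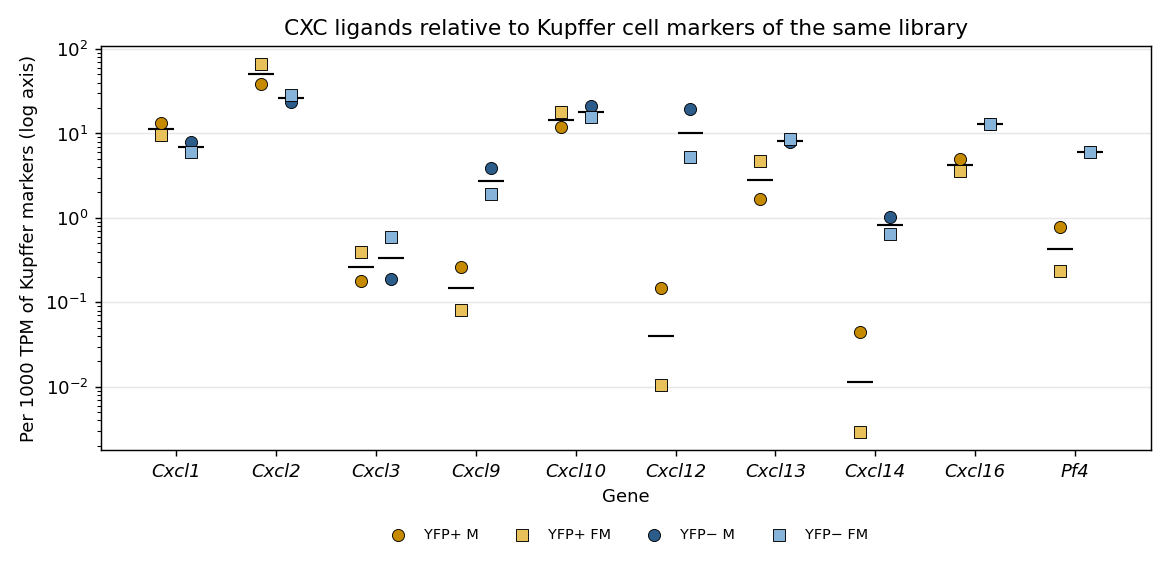
Level of each CXC ligand per 1000 TPM of 8 summed Kupffer cell markers of the same library, on a log axis, with a bar at the geometric mean of each group (n = 2). Cxcl1 and Cxcl2 lie higher in both YFP+ libraries, Cxcl3 and Cxcl10 overlap, and the other 6 ligands lie lower in both. The divisor was larger in YFP+ libraries, and no share over all genes was computed on this scale. The count of lower ligands is therefore no result about the ligands.

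On this scale, chosen after the data were seen, the ratio of YFP+ to YFP- for Cxcl13 was 0.212 in the M pair and 0.546 in the FM pair, and for Pf4 0.129 and 0.0388. Cxcl3 overlapped between the groups, at 0.177 and 0.393 per 1000 in YFP+ and 0.188 and 0.588 per 1000 in YFP- libraries. The measure does not show which cells made a ligand, is not a level per Kupffer cell, and has no test. A ligand at equal TPM in all libraries would read lower in YFP+ libraries, where the marker sum was higher.

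Other genes of the chemokine system were read from lists chosen for this purpose. Of 5 further CXC ligand genes, Cxcl5 was listed at 0 in every library and Cxcl11 at up to 0.570 TPM. Only Ppbp was tested, and it fell (-2.00, SE 0.46, limma adjusted p = 0.000416) but did not pass under quantile normalization (-0.63, adjusted p = 0.300). Ppbp reached 1 TPM only in YFP- libraries, so it entered the test only through the group where it was high. Its direction is therefore no separate result.

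Of 7 tested chemokine receptor genes 0 rose and 3 fell by limma (0 higher and 5 lower at an unadjusted p under 0.05), near the 39.5% of all tested genes that fell. The 3 were Cxcr4, the receptor of Cxcl12 (-3.34, SE 1.13, limma adjusted p = 0.0150), Cxcr6, the receptor of Cxcl16 (-3.70, 0.00760), and Cxcr7, now named Ackr3, a scavenging receptor of Cxcl12 (-3.55, 0.00168). Cxcr4 was at 4.43 and 0.461 TPM in YFP+ and 41.6 and 18.0 TPM in YFP- libraries. Cxcr5, the receptor of Cxcl13 and the most abundant of the list by mean, was at 15.5 and 2.22 against 14.7 and 78.3 TPM and did not pass (adjusted p = 0.0851). Cxcr2, the receptor of Cxcl1 and Cxcl2, was at 1.03 and 1.11 against 0.823 and 18.4 TPM. Under quantile normalization 0 of the receptor genes were called by limma, with 2 lower at an unadjusted p under 0.05.

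Of 16 genes of NF-kB signalling and inducing cytokines 2 rose and 0 fell by limma (4 lower at an unadjusted p under 0.05). Of all tested genes 0.522% rose and 39.5% fell. The median log2 fold change of the list was -0.89. The NF-kB inhibitor Nfkbia, itself an NF-kB target, was at 3906 and 5835 TPM in YFP+ and 1065 and 1169 TPM in YFP- libraries (2.10, SE 0.66, limma adjusted p = 0.00894). Il1b, an inducer of CXCR2 ligands, was at 2965 and 3680.5 TPM in YFP+ and 227 and 1274 TPM in YFP- libraries (2.62, limma adjusted p = 0.00228). Both had groups without overlap, like Cxcl1 and Cxcl2, but under quantile normalization neither passed (adjusted p = 0.224 and 0.279). Tnf was at 166 and 161 against 58.5 and 242 TPM (adjusted p = 0.669). Zfp36, which speeds decay of chemokine transcripts and was the most abundant other gene of this list, was at 3260.0 and 3354 against 2438 and 2875 TPM (adjusted p = 0.668).

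In the interferon arm 1 of 12 genes rose and 1 fell, where 0.522% of all tested genes rose and 39.5% fell. The transcription factor Irf7 was at 1197 and 1522 TPM in YFP+ and 147 and 499 TPM in YFP- libraries (2.31, limma adjusted p = 0.0141), and Ifnar1, a chain of the type I interferon receptor, was at 17.2 and 3.61 against 53.9 and 89.5 TPM (-2.94, 0.0240). Neither passed under quantile normalization (adjusted p = 0.123 and 0.251). Ifngr1, a chain of the interferon gamma receptor, was at 306 and 117 against 496 and 774 TPM (adjusted p = 0.0807).

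Among 9 proteases and proteoglycans that act on chemokines 1 rose and 3 fell, where 0.522% of all tested genes rose and 39.5% fell. Sdc3, a heparan sulfate proteoglycan, was at 903 and 684 TPM in YFP+ and 71.7 and 148 TPM in YFP- libraries (2.92, limma adjusted p = 0.00451). Adam10, which sheds Cxcl16 from the membrane, was at 26.1 and 3.97 against 113 and 110 TPM (-3.28, limma adjusted p = 0.01001). Dpp4, which trims the amino end of Cxcl10 and Cxcl12, fell as well (-3.17, 0.0150), as did the macrophage elastase Mmp12 (-1.34, 0.0191). Mmp12 reached 1 TPM only in YFP- libraries, so it entered the test only through the group where it was high. Under quantile normalization neither Adam10 (adjusted p = 0.171) nor Dpp4 (0.159) passed, and Mmp12 turned sign. Srgn, the proteoglycan of secretory granules, was at 958 and 918 against 900.2 and 353 TPM (adjusted p = 0.402).

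Of the 12 called genes in these lists, 1 (Sdc3) was called under quantile normalization, 6 under median-ratio scaling (Cxcr6, Cxcr7, Il1b, Irf7, Ppbp and Sdc3), and 0 under cyclic loess or without a filter. Without the YFP+ M library 11 were called, all but Nfkbia. Without the YFP+ FM library 3 were called (Cxcr7, Ppbp and Sdc3), without the YFP- M library 1 (Nfkbia), and without the YFP- FM library 4 (Il1b, Irf7, Nfkbia and Sdc3).

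The tested genes with the pattern nearest to each ligand over the 4 libraries were found by distance between gene-centred log2(TPM + 1) values. Names given to predicted genes or clones, such as Gm and Rik names, were skipped. For Cxcl1 they were Dmpk (distance 0.31) and Acp5 (0.40), for Cxcl2 Hilpda (0.48) and Ninj1 (0.71), for Cxcl12 Tsc22d1 (0.22) and Plat (0.24), and for Cxcl14 Epc1 (0.04) and Slc15a2 (0.05). For the ligands that did not pass, they were Tmem132a and H2-Q10 (Cxcl3), Coq2 and Derl2 (Cxcl9), Rilpl2 and Gadd45g (Cxcl10), Il3ra and Junb (Cxcl13), Siglece and Ecm1 (Cxcl16), and Txnl4b and Tmcc1 (Pf4). Acp5 was at 1300.0 and 1093 TPM in YFP+ and 145 and 259 TPM in YFP- libraries. Plat was at 4.48 and 0.168 TPM in YFP+ and at 110.1 and 63.5 TPM in YFP- libraries.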

How the data were processed

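Gene tables for 4 libraries were used, 1 table per library. Per the file headers, the authors deposited mean read coverage (a signal per base), FPKM (fragments per kilobase per 1000000 mapped) and TPM for each gene. The submitters' processing notes name HISAT, GRCm38 and mm10; no source used here names the program behind the tables. Whole reads could not be recovered: covered bases came out whole, within 0.02, for 57.9% to 63.8% of single-exon genes. Depth in reads is therefore unknown and no count test was used. Values of one gene name were summed. The 12251 genes that reached 1 TPM in 2 or more libraries were tested in limma 3.58.1 (R 4.3.3) on log2(TPM + 1), with a trended prior, two-sided, and p-values adjusted over all of them by the Benjamini-Hochberg method (threshold 0.05). This scale understates changes of low genes. The fit was also run on simulated data drawn from its own means and variances, with most genes unchanged. That run cannot check whether its assumptions hold for these libraries.

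Groups were taken from the genotype label. Members, lists and tests were chosen with earlier results of these data known. Named genes are the 10 ligands, Lyz2, from each pathway list up to 4 genes that passed and the most abundant other gene, the 2 markers of highest mean level in a marker list (most are given here only within sums, and some genes are not reported here), and the 2 genes nearest to each ligand. Cxcr2, Tnf, Cxcl5, Marco, Fcna, Cdh5 and Stab2 were named after their values were seen, as were Zmynd15 and Art3, which overlap ligands. The tables hold older names for Ackr1, Ackr3 and Chil3, and Ly6g was not matched. Alternatives changed the pseudocount (0.1), the filter (none, or 5 TPM), the unit (FPKM), the scaling (quantile, median-ratio, cyclic loess), the variance model, the block, summing, and the libraries included. Levels per summed Kupffer cell markers were added after seeing the data. Transcripts came from GENCODE M21 and promoters from RefSeq (GRCm38.p6), and alignments used Biopython 1.88 in Python 3.11.15.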

Additional observations from a re-analysis of the deposited data

Results flagged for a closer look

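Cxcl16 was set aside for a closer look because its difference had opposite signs in the 2 title starts. On the log2(TPM + 1) scale YFP+ minus YFP- was 1.22 between the M libraries and -0.18 between the FM libraries. Lyz2 showed the same pattern, with 2.39 and -0.20, and so did Cxcr5, with 0.068 and -4.62. With 1 library per group and title start, the difference between title starts was not tested.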

How the results depend on the processing

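Of the 10 ligands 2 were called higher and 2 lower, and of all genes 64 and 4834. In the same order the counts were 0, 0, 1 and 168 without a filter (over 23337 genes), 6, 1, 759 and 790 under median-ratio scaling, 1, 0, 65 and 40 under cyclic loess (1 ligand lower at an unadjusted p under 0.05 by limma), and 2, 1, 148 and 205 under quantile normalization. FPKM gave 115 genes higher, a pseudocount of 0.1 gave 3078 lower and a filter at 5 TPM 2902 lower. With the title start as a replicate block the counts were 1, 1, 23 and 1726 (Cxcl1, adjusted p = 0.0688, and Cxcl14, 0.118, were not called, and 4 of 12 called pathway genes were), and with quantile normalization as well 3, 1, 752 and 650, and Lyz2 passed (2.57, adjusted p = 0.00983). Same-start libraries did not deviate together (correlation across genes -0.01), so the pairing is not established. Leaving out single libraries gave 1 to 2 and 0 to 4 ligands, and 12 to 71 and 24 to 8280 genes. The cause of these shifts was not tested, beyond the smaller number of libraries.

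Signs turned as follows. Cxcl9 was at 0.12 under quantile normalization with and without the block, 0.17 under median-ratio scaling and 0.22 under loess, and Pf4 at 0.11, 0.57 and 0.10. Zfp36 was at -0.28 under quantile normalization with and without the block and -0.73 under loess, Mmp12 at 0.26 and 0.17, and Ifngr1 at 0.56 under median-ratio scaling. Cxcl13 ranged from -0.14 (without YFP+ FM) to 1.28 with single libraries left out. Per summed Kupffer cell markers Cxcl3 was at -0.33, Cxcl10 at -0.32, Cxcl13 at -1.56 and Cxcl16 at -1.61. Coverage under 1 limits Cxcl12 and Cxcl14 in YFP+ FM.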
